A study of Mus musculus with 40 samples.

Results

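Retinas of mice with oxygen-induced retinopathy (OIR) that had been injected with an antibody to angiopoietin-2 (anti-ANG2) were compared with OIR retinas injected with control IgG, all taken at postnatal day 19 (P19). The comparison takes the 4 libraries of the anti-ANG2 group and the 4 of the IgG group, 8 of the 40 libraries of the series, and covers all 23495 genes that passed the filter on low counts. All mice were C57BL/6J. In both groups pups were kept in 75% oxygen from P7 to P12 and then in room air, and 1 µl of antibody was injected into the vitreous at P14. Anti-ANG2 (clone LC10) was given at 0.2 µg/µl and IgG at 0.4 µg/µl, so the amount of antibody differed between the groups. The other P19 groups, used only for reference, were OIR retinas given anti-VEGFA (clone B20.4.1, 0.2 µg/µl) or an antibody that binds both VEGFA and ANG-2, called bispecific here (0.4 µg/µl), and normal retinas of mice without OIR, for which the labels do not state an injection. Per the labels' protocols each library came from 1 whole retina. The 8 libraries held 13724785 to 21477010 counts, and the same groups were also sampled at P17. The labels call the 4 samples of a condition independent but do not say that they came from different mice or litters, so p-values measure only the spread between these samples.

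In the OIR model high oxygen stops the growth of retinal capillaries and removes part of them, and the return to room air leaves the inner retina short of oxygen, after which abnormal vessels grow toward the vitreous. Angiopoietin-2 is a ligand of the receptor TIE2, encoded by Tek, which endothelial cells carry. It is made largely by endothelial cells themselves, it competes with angiopoietin-1 on TIE2, and it loosens vessels and acts together with VEGFA during sprouting. The inner nuclear layer, which the deep capillaries supply, holds bipolar cells, amacrine cells, horizontal cells and the bodies of Müller glia. Bipolar cells carry the signal of rods and cones to ganglion cells, and amacrine cells inhibit them through GABA and glycine.

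Few genes separated the groups in the main fit, while the other fits described below called 1 to 578 genes. With edgeR's quasi-likelihood test, 23 of 23495 genes were called at an adjusted p under 0.05 (0.0979%), of which 19 were lower with anti-ANG2 (0.0809%) and 4 were higher (0.017%). The 19 lower genes include genes of bipolar and other inner retinal neurons: Scgn, Isl1 and Neurod4, the glutamate receptor Grm4 and the neuronal membrane genes Lrrn3, Gpm6a and Slc4a10. No gene of the angiopoietin, VEGF or endothelial lists was called. In all, 2935 genes had an unadjusted p under 0.05 (12.5%), the groups did not overlap for 1127 genes (4.8%), and the median change of all genes was 0.03 on the log2 scale.

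The promoters of Scgn, Isl1 and Neurod4 are shown because these genes mark or help to specify bipolar cells and were lower together. Each line gives the 250 bases before the RefSeq start of the gene (GRCm38.p6), 5′ to 3′ on the gene's strand, in lower case, and capitals mark a match to either motif searched.
Scgn (chr13:23991215-23991464, minus strand): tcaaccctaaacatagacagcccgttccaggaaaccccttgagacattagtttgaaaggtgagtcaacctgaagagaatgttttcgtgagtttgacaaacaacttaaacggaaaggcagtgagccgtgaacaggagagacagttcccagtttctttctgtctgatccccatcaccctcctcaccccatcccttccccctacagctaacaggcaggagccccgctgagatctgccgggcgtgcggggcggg
Isl1 (chr13:116309689-116309938, minus strand): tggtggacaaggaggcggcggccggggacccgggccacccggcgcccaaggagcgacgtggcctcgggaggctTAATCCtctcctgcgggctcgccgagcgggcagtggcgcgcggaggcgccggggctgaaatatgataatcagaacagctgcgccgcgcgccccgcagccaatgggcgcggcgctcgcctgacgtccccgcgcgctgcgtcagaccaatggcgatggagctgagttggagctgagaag
Neurod4 (chr10:130280255-130280504, minus strand): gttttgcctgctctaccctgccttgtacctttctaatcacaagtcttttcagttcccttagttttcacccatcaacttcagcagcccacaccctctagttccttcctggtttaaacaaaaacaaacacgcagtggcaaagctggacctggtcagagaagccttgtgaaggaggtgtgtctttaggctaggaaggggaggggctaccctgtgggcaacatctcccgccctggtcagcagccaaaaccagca
The motifs were TAATCC, a core recognised by homeodomain factors of the OTX and CRX family, and CAGATG, an E-box recognised by proneural factors of the NEUROD kind. Both were searched on both strands, and matches of the 2 motifs can share at most 1 base. Of the 23 called genes, 16 had a RefSeq window, 13 of them lower genes. TAATCC occurred in 1 of these 13, Isl1, 177 bases before the start, where 6.25% of 32851 windows of the same length held it. CAGATG occurred in 3 of the 13, Elovl5, Fstl5 and R3hdml, where 14.4% of all windows held it. The windows of Scgn and Neurod4 held neither, which says only that these letters are absent there.

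Bipolar cell genes came first by p. Scgn encodes secretagogin, a calcium-binding protein of cone bipolar cells (chr13:23953456-23991214, minus strand, GRCm38, as for all gene positions here). Scgn read 131, 124, 149 and 115 CPM in the anti-ANG2 retinas and 249.8, 230.4, 214 and 207 CPM in the IgG retinas, given for replicates 1 to 4 in order as CPM, the count relative to the library's total scaled with TMM factors. All 4 anti-ANG2 values lay below all 4 IgG values, with a wide gap. Scgn fell to 0.576-fold (95% interval 0.482 to 0.686, adjusted p = 0.0032) of its IgG level by the edgeR fit, the smallest p of the comparison. Isl1, a LIM-homeodomain factor of ON bipolar cells, cholinergic amacrine cells and ganglion cells (chr13:116298281-116309689, minus strand), read 78, 108, 92.6 and 98 CPM in the anti-ANG2 retinas and 153, 183, 166 and 171 CPM in the IgG retinas. The groups did not overlap, and Isl1 fell to 0.56-fold (95% interval 0.44 to 0.713, adjusted p = 0.025). Neurod4, a basic helix-loop-helix factor of developing bipolar and amacrine cells (chr10:130268152-130280240, minus strand), read 238, 210.3, 236 and 303 CPM in the anti-ANG2 retinas and 375, 374, 386 and 384 CPM in the IgG retinas. The IgG retinas were nearly alike for this gene, and anti-ANG2 replicate 4 stood nearest to them. Neurod4 fell to 0.65-fold (95% interval 0.538 to 0.786, adjusted p = 0.046). Neurod4 lay outside the naming rule and is described because it was called.

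All gene lists here were chosen with earlier results of these data known, so counts of their members are descriptions, not tests. The list of 20 bipolar genes had 2 called lower, Scgn and Isl1, and 11 with an unadjusted p under 0.05 and a lower level (5.86% of all genes had such a p and were lower). Of its members 19 had an estimate below 0, and Otx2, a factor shared with photoreceptors, was the exception at 0.06 on the log2 scale. The list median was -0.53, against 0.03 for all genes. Covariates for 2 measures of the libraries, given with the library differences, moved it to -0.27 with the mitochondrial share as a covariate and -0.33 with the length slope (4 and 9 members lower at an unadjusted p under 0.05). With the mitochondrial share 468 of all genes were lower at that level and with the length slope 1278, against 1376 without a covariate. Summed over the list, levels ran from 1401 to 1712 CPM in the anti-ANG2 retinas and 2110 to 2342 CPM in the IgG retinas, without overlap. In 6 members the groups did not overlap, all of them lower, as in 2.83% of all genes. Among the genes of ON bipolar signalling, chosen here after their values were seen, the receptor Grm6 ran at 40.8 to 79.8 against 85.8 to 110.2 CPM (0.534-fold, adjusted p = 0.15) and its channel Trpm1 at 90.4 to 266 against 187 to 293 CPM (0.608-fold, adjusted p = 0.25). Neither passed the threshold. In whole retina a smaller number of cells of a type and less RNA per cell cannot be told apart.

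**Figure D1:**
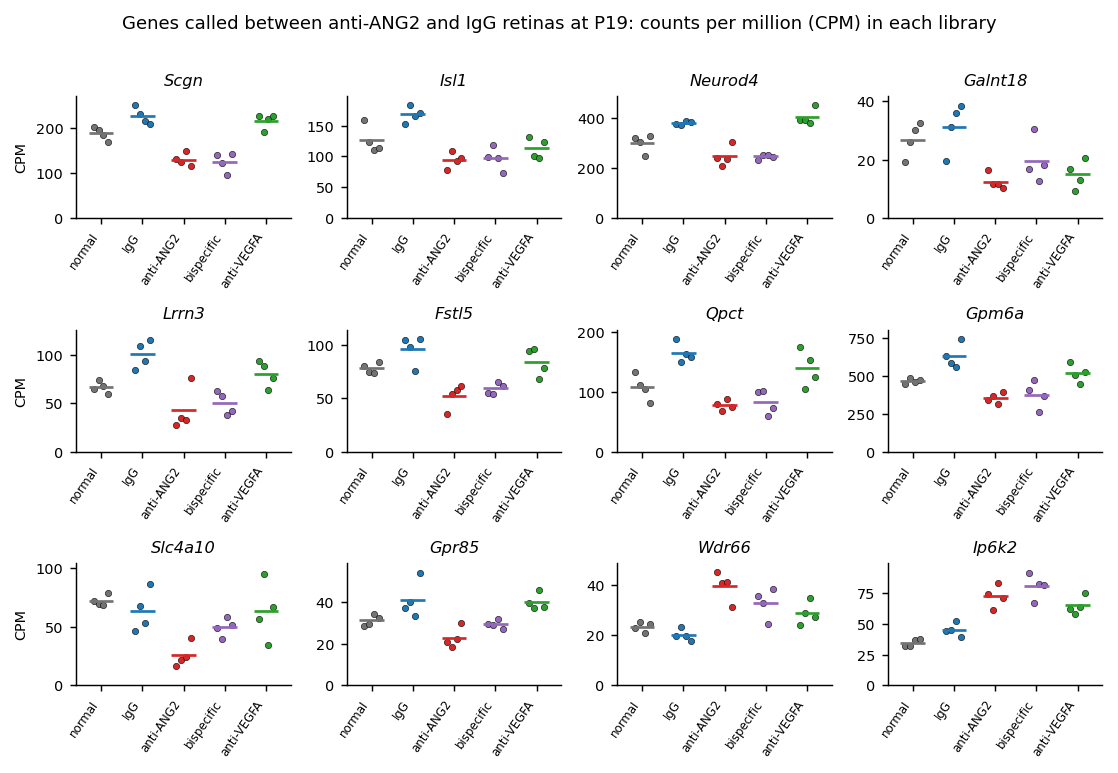
CPM (vertical axis, from 0) for 12 of the 23 called genes in each of the 20 libraries at P19; points are libraries in replicate order and lines are group means. The 10 lower genes have all 4 anti-ANG2 points below all 4 IgG points, Wdr66 and Ip6k2 the reverse, and the bispecific group has a Scgn mean of 125 CPM beside 129.8 CPM with anti-ANG2.

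Receptors for inhibitory and excitatory transmitters showed lower estimates. All 22 tested genes of GABA and glycine receptors had estimates below 0, where 47.7% of all genes did, and 12 had an unadjusted p under 0.05, with 1 called lower. Their median was -0.59, which was -0.30 with the mitochondrial share as a covariate and -0.54 with the length slope (6 and 7 members lower at an unadjusted p under 0.05). Their summed level was 705 to 832 CPM in the anti-ANG2 retinas and 1025 to 1231 CPM in the IgG retinas. Gabrr1, a subunit of ionotropic GABA receptors on bipolar terminals, was not called at 57.4 to 82.7 against 112 to 154 CPM (0.547-fold, adjusted p = 0.073). Gabbr2, a subunit of the metabotropic GABA-B receptor, had the lowest estimate of the list at -1.10 on the log2 scale (adjusted p = 0.083).

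Of 25 glutamate receptor genes 22 had estimates below 0 and 10 had an unadjusted p under 0.05, all of them lower, with a median of -0.63. This median was -0.47 with the mitochondrial share as a covariate and -0.30 with the length slope (2 and 6 members lower at an unadjusted p under 0.05). Grm4, a presynaptic metabotropic receptor that couples to inhibitory G proteins, was the member called. Grm4 read 0.453, 1.26, 1.24 and 2.21 CPM in the anti-ANG2 retinas and 2.54, 3.36, 4.45 and 11 CPM in the IgG retinas, at low counts, and anti-ANG2 replicate 4 at the top of its group lay just below the lowest IgG retina. It fell to 0.245-fold (95% interval 0.132 to 0.455, adjusted p = 0.046). Gria3, an AMPA receptor subunit, ran at 14.2 to 27.9 against 28.3 to 47.5 CPM (0.535-fold, adjusted p = 0.097) and was not called. Grik4, a kainate receptor subunit with an estimate of -2.06 (adjusted p = 0.27), was not called either.

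Lrrn3, a leucine-rich repeat protein of neurons (chr12:41451668-41486431, minus strand), read 27.4, 35.1, 33.2 and 75.5 CPM in the anti-ANG2 retinas and 84.2, 109, 93.3 and 115 CPM in the IgG retinas. Anti-ANG2 replicate 4 stood far above the other 3 of its group and just below the lowest IgG retina. Lrrn3 fell to 0.427-fold (95% interval 0.32 to 0.569, adjusted p = 0.0034). Gpm6a, a membrane glycoprotein of growing neurites (chr8:54954843-55060871, plus strand), read 341, 369.5, 318 and 398 CPM in the anti-ANG2 retinas and 636, 585, 561 and 746 CPM in the IgG retinas, with a gap of over 100 CPM between the groups. Gpm6a fell to 0.564-fold (95% interval 0.454 to 0.701, adjusted p = 0.015). Slc4a10, a sodium-dependent bicarbonate transporter of neurons, ran at 16.5 to 40.4 against 46.6 to 86.4 CPM and fell to 0.405-fold (95% interval 0.282 to 0.582, adjusted p = 0.023), with anti-ANG2 replicate 4 again the highest of its group. Gpr85, an orphan receptor of the nervous system, fell to 0.556-fold (95% interval 0.436 to 0.709, adjusted p = 0.025), from 40.9 to 22.8 CPM on average. The calcium channel subunit Cacna2d2 ran at 5.44 to 10.5 against 11.6 to 24.5 CPM and just missed the threshold (0.423-fold, adjusted p = 0.051).

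The 35 genes of synaptic adhesion and axon guidance held no called gene. The list had 13 with an unadjusted p under 0.05, all lower, and a median of -0.39, which was -0.18 with the mitochondrial share as a covariate and -0.18 with the length slope (4 and 8 members lower at an unadjusted p under 0.05). The smallest p among them were those of the contactin Cntn4 (39.5 to 76.7 against 81.3 to 102 CPM, 0.598-fold, adjusted p = 0.092) and the teneurin Tenm4 (21.9 to 44.8 against 46.9 to 69.4 CPM, 0.557-fold, adjusted p = 0.11). Of 36 potassium channel genes none was called and 10 had an unadjusted p under 0.05, all lower, with a median of -0.44. This median was -0.09 with the mitochondrial share as a covariate and -0.19 with the length slope (1 and 4 members lower at an unadjusted p under 0.05). The shaker-type channel Kcna5, one of these 10, ran at 21.4 to 39.5 against 43.9 to 63.5 CPM (0.549-fold, adjusted p = 0.14). These lists hold long genes, with median transcript lengths of 8541 bases for adhesion and 5184 bases for potassium channels, against 2850 bases for all genes with a length. The 25 sodium and calcium channel genes had a median of -0.12, with 4 lower at an unadjusted p under 0.05. The synaptic vesicle list had a median of -0.11, with 5 of 32 genes lower and 1 higher at an unadjusted p under 0.05.

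Qpct, a glutaminyl cyclase that forms pyroglutamate at the ends of peptides (chr17:79051906-79090378, plus strand), read 80.5, 68.9, 88 and 74.8 CPM in the anti-ANG2 retinas and 188, 149.7, 163 and 158 CPM in the IgG retinas. The spread within each group was small against the gap between them. Qpct fell to 0.474-fold (95% interval 0.361 to 0.622, adjusted p = 0.0081). Fstl5, a secreted follistatin-like protein (chr3:76074270-76710019, plus strand), read 35.2, 53.7, 57.6 and 61.2 CPM in the anti-ANG2 retinas and 105, 98.1, 75.6 and 105 CPM in the IgG retinas and fell to 0.542-fold (95% interval 0.437 to 0.671, adjusted p = 0.0047). Elovl5, an elongase of polyunsaturated fatty acids, ran at 21.9 to 28.3 against 44.8 to 60.8 CPM and fell to 0.472-fold (95% interval 0.339 to 0.656, adjusted p = 0.046). Galnt18, of the family of enzymes that start O-linked glycans, ran at 10.2 to 16.5 against 19.6 to 38.3 CPM and fell to 0.397-fold (adjusted p = 0.025). Rnf103, a ubiquitin ligase of the endoplasmic reticulum, ran at 23.2 to 31.3 against 41.6 to 65.7 CPM and fell to 0.545-fold (adjusted p = 0.029). Also called lower were Nol4 (0.373-fold), Gsg1 (0.563-fold), Fam13c (0.387-fold), Rsrp1 (0.659-fold) and R3hdml (0.139-fold), with adjusted p from 0.019 for Nol4 to 0.049 for R3hdml. Rsrp1 and R3hdml lay outside the naming rule. R3hdml ran at only 0.165 to 0.836 against 2.39 to 6.24 CPM.

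Among the 4 higher genes, Wdr66, which encodes a protein of motile cilia and flagella (chr5:123252102-123327484, plus strand), read 45.1, 40.8, 41.1 and 31.3 CPM in the anti-ANG2 retinas and 19.7, 23.3, 19.6 and 17.6 CPM in the IgG retinas. The groups did not overlap, and Wdr66 rose 1.97-fold (95% interval 1.51 to 2.58, adjusted p = 0.021). Ip6k2, an inositol hexakisphosphate kinase (chr9:108783796-108806337, plus strand), read 74.2, 61, 83.1 and 70.9 CPM in the anti-ANG2 retinas and 44.1, 45.2, 51.9 and 39.4 CPM in the IgG retinas and rose 1.6-fold (95% interval 1.32 to 1.94, adjusted p = 0.025). Cyb5r1, of the cytochrome b5 reductase family, ran at 45.6 to 76.6 against 29.9 to 44.7 CPM, with anti-ANG2 replicate 4 barely above the highest IgG retina, and rose 1.7-fold (95% interval 1.34 to 2.14, adjusted p = 0.047). The fourth, the gene model 4930529C04Rik outside the naming rule, read 1.06, 0.569, 4.2 and 2.45 CPM in the anti-ANG2 retinas and 0, 0, 0.113 and 0 CPM in the IgG retinas. Its rounded counts summed to 115 in the anti-ANG2 group and 2 in the IgG group, a ratio of 73.6 with an exact counting interval of 19.9 to 615. That interval covers counting error only. The means of the other P19 groups lay within the wide range of the anti-ANG2 retinas, at 1.5 CPM in normal, 0.992 CPM in anti-VEGFA and 1.48 CPM in bispecific retinas.

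How firmly the calls stood depended on single libraries. In each of the 20 other fits tried, the genes called in the main comparison that could be fitted kept their direction, but the number called did not hold. Fitted on the 8 compared libraries alone, the test called 1 gene, which was lower and among the 23. Without anti-ANG2 replicate 1, 2 or 3 the test called 5, 11 or 8 genes, and without IgG replicate 1, 2, 3 or 4 it called 18, 8, 15 or 7. Without anti-ANG2 replicate 4 it called 439 genes, 244 higher (1.01%) and 195 lower (0.806%), among them all 23. Of the 23, 4 were called in all 8 of these leave-one-out fits, among them Scgn, Lrrn3 and Qpct, Fstl5 in 7, and Gpm6a, Nol4 and Gsg1 in 5. The other 15 genes were called in 1 to 3 of them, so each of those 15 calls was lost in at least 5 fits. DESeq2 called 521 genes on the same counts, 361 higher (2.87% of the 12562 genes with an adjusted p) and 160 lower (1.27%), with 21 of the 23 among them. Its lower calls held 6 of the 20 bipolar genes, 6 of the 22 GABA and glycine receptor genes and 4 of the 25 glutamate receptor genes. The authors' TPM values, which divide by transcript length and were fitted without TMM factors, gave 578 genes with limma, 28 higher and 550 lower. On that scale the median of all genes moved to -0.19. Those of the bipolar, GABA and glycine receptor and glutamate receptor lists were -0.86, -0.79 and -0.67.

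Libraries also differed in ways that ran along with the groups. The TMM factors were 0.743, 0.861, 0.885 and 0.986 in anti-ANG2 replicates 1 to 4 and 0.904 to 1.02 in the IgG retinas. A lower factor gives a higher CPM at the same share of counts. All 4 IgG retinas carried Y-linked counts and almost no Xist, as did anti-ANG2 replicates 1 and 2, whereas anti-ANG2 replicate 4 carried Xist and anti-ANG2 replicate 3 carried both, at 277 CPM of Xist and 11.4 CPM of Y-linked genes before scaling. In the whole series 9 libraries carried both at over 5 CPM. RNA of 1 mouse does not usually hold both, so for these libraries, anti-ANG2 replicate 3 among them, the counts put the stated source of 1 retina in doubt, and how they came to hold both was not tested. Leaving all 9 out gave 6 calls, all lower, 4 of them among the 23, including Scgn, Fstl5 and Qpct. A covariate for the level of Y-linked genes left 25 calls, 17 of them among the 23. The 2 mitochondrial ribosomal RNAs took 1.01% to 1.86% of counts in the anti-ANG2 retinas and 0.461% to 0.753% in the IgG retinas (difference of means 0.668 percentage points; exact two-sided permutation p = 0.0286, the smallest that 4 against 4 allows; 0.0571 adjusted over 2 library measures). Both transcripts ran higher with anti-ANG2, mt-Rnr2 at 2.42-fold and mt-Rnr1 at 2.2-fold, without being called (adjusted p = 0.093 and 0.13). With this share as a covariate only Scgn was called.

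Change also followed transcript length. Genes of at most 500 bases had a median log2 change of 0.55, genes of 2000 to 3000 bases one of 0.01 and genes over 8000 bases one of -0.16, with lengths for 19268 genes (82.0%). On the TPM scale the medians of these classes still fell with length, at 0.05, -0.24 and -0.36. The slope of log2 CPM on log2 length, over 10098 genes, ran from -0.356 to -0.0106 in the anti-ANG2 retinas and from -0.188 to 0.0853 in the IgG retinas, which overlap (exact two-sided permutation p = 0.2). The called lower genes had a median length of 3345 bases. With the slope as a covariate 11 genes were called, 10 of them among the 23, including Scgn, Lrrn3, Fstl5, Qpct, Gpm6a, Gsg1, Slc4a10, Rsrp1 and 4930529C04Rik.

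**Figure D2:**
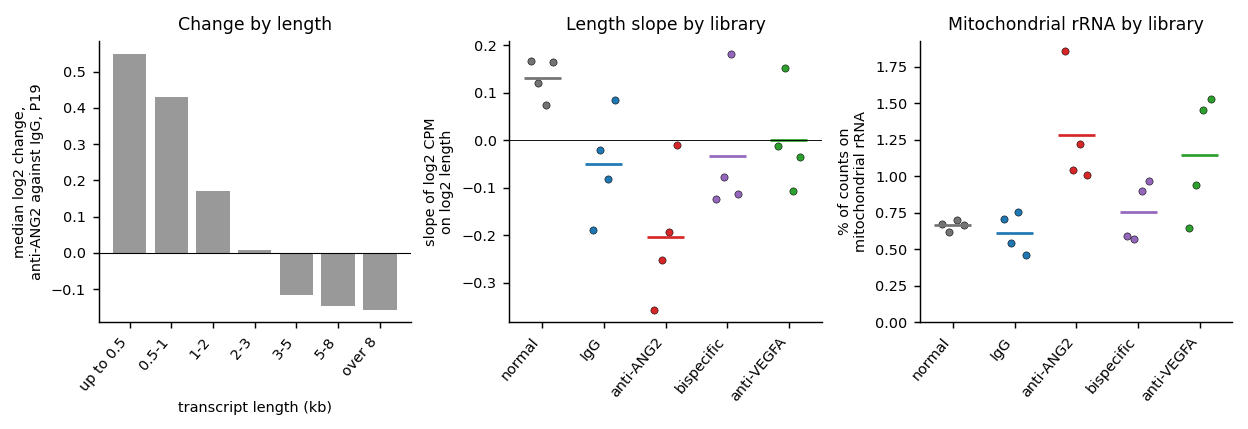
Left, median log2 change of anti-ANG2 against IgG at P19 by transcript length in kilobases; middle, slope of log2 CPM on log2 length in each P19 library; right, percent of counts on mitochondrial rRNA in each P19 library, with group means as lines. The medians go from 0.55 for the shortest genes to -0.16 for the longest, and the mitochondrial share of the anti-ANG2 retinas starts at 1.01%, above the 0.753% that the highest IgG retina reached.

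Rod genes, and most cone genes, had estimates in the other direction, and none was called. All 20 rod genes had estimates above 0 (52.2% of all genes did), with a median of 0.47, and 15 had an unadjusted p under 0.05 (6.64% of all genes did and were higher). Summed, they took 101700 to 151400 CPM in the anti-ANG2 retinas and 71200 to 99180 CPM in the IgG retinas, ranges that lay close but did not overlap. Gngt1, the gamma subunit of rod transducin, read 10930, 6521, 6615 and 4723 CPM in the anti-ANG2 retinas and 4864, 3151, 4121 and 2418 CPM in the IgG retinas. Anti-ANG2 replicate 4 lay just below IgG replicate 1, and the other anti-ANG2 retinas were above all IgG retinas (1.98-fold, adjusted p = 0.11). Prph2, a protein of the rims of outer segment discs, ran at 8738 to 12200 against 5489 to 6954 CPM (1.52-fold, adjusted p = 0.11) and Nrl, the factor that sets rod fate, at 599 to 1005 against 379 to 588 CPM (1.67-fold, adjusted p = 0.13). Of 16 cone genes 13 had estimates above 0 and 3 below, with a median of 0.23, and 4 were higher at an unadjusted p under 0.05. This median was 0.05 with the mitochondrial share, 0.11 with the length slope and -0.13 on the TPM scale, where that of all genes was -0.19. The smallest p among them were those of Guca1a, the guanylate cyclase activator, and the cone transducin subunit Gngt2. Guca1a ran at 1193 to 2115 against 582 to 1117 CPM (1.89-fold, adjusted p = 0.13). Gngt2 ran at 238 to 541 against 124 to 263 CPM (1.85-fold, adjusted p = 0.13). The rod median was 0.20 with the mitochondrial share as a covariate and 0.23 with the length slope (2 and 9 members higher at an unadjusted p under 0.05). On the TPM scale it was 0.11 (4 members), against -0.19 for all genes. Of all 23495 genes, 711, 1194 and 389 were higher at that level in these fits, in that order. DESeq2 called 9 of the 20 rod genes and 3 of the 16 cone genes higher (2.87% of all genes with an adjusted p).

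Ribosomal protein genes and nuclear genes of the respiratory chain also ran higher without a call. Of 84 cytosolic ribosomal protein genes 83 had estimates above 0 and 76 had an unadjusted p under 0.05, with a median of 0.64. The groups were without overlap in 1 of the 84 (1.97% of all genes did so and were higher), and the sums overlapped at 15400 to 30520 CPM in the anti-ANG2 retinas and 11180 to 18470 CPM in the IgG retinas. The exception was the muscle paralog Rpl3l (0 to 0.577 against 0 to 1.82 CPM). Rpl38 read 166, 119.7, 108 and 77.8 CPM in the anti-ANG2 retinas and 82, 59.1, 68.1 and 44.4 CPM in the IgG retinas (1.86-fold, adjusted p = 0.077), and anti-ANG2 replicate 4 lay below IgG replicate 1. Rpl36 ran at 109 to 241 against 73.5 to 122 CPM (1.86-fold, adjusted p = 0.082). Near-identical processed copies of ribosomal protein genes can share reads, so single members are uncertain. Of 35 respiratory chain genes 25 were higher at an unadjusted p under 0.05, with a median of 0.47, and Ndufs1 was lower at that level (-0.35). In this list too the groups were without overlap in 1 higher gene, and the sums overlapped at 15830 to 27290 CPM in the anti-ANG2 retinas and 12720 to 18180 CPM in the IgG retinas. The complex III subunit Uqcrq ran at 446 to 956 against 292 to 504 CPM (1.71-fold, adjusted p = 0.13). Both lists hold short transcripts, with median lengths of 910 and 1046 bases. With the length slope as a covariate their medians were 0.23 and 0.12, and with the mitochondrial share they were 0.03 and -0.01. DESeq2 called 53 of the ribosomal protein genes and 13 of the respiratory chain genes higher (2.87% of all genes with an adjusted p).

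**Figure D3:**
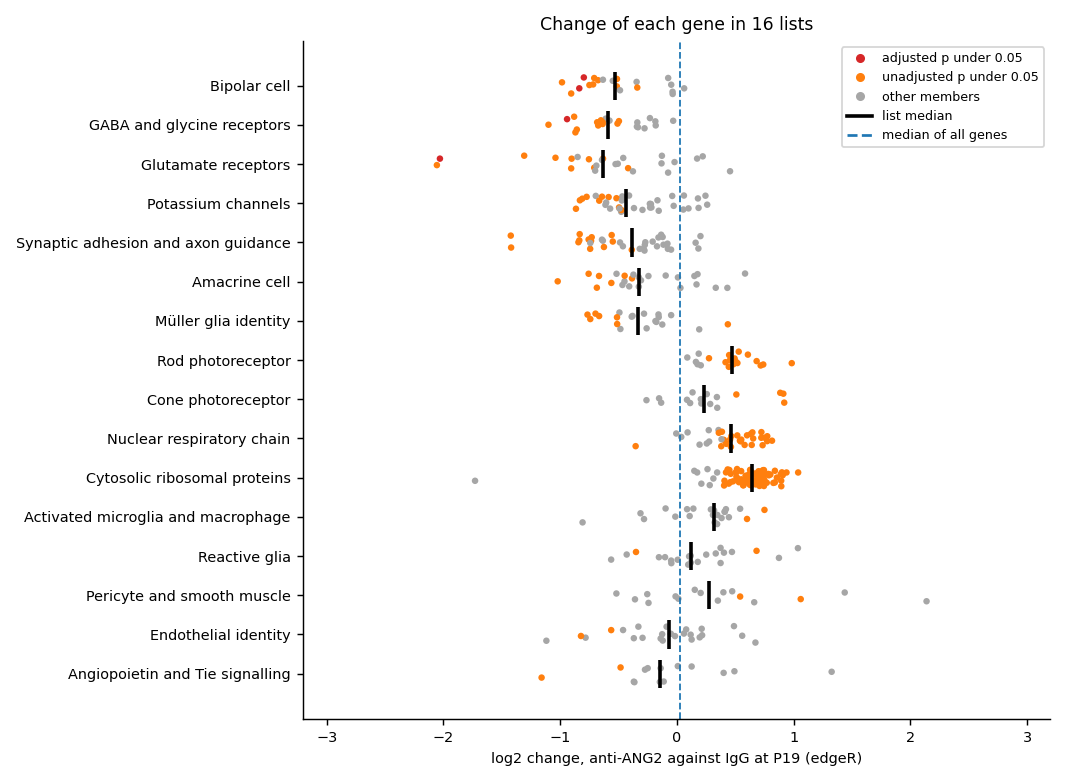
Log2 change of anti-ANG2 against IgG at P19 (horizontal axis) for each tested gene of 16 lists, with the list median as a black bar and the median of all genes as a dashed line. Bipolar, transmitter receptor and potassium channel lists have medians from -0.63 to -0.44, and rod, respiratory chain and ribosomal protein lists have medians from 0.47 to 0.64, with called genes in red.

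Other cells of the inner retina had weaker estimates. Müller glia genes had a median of -0.33, with 6 of 20 lower at an unadjusted p under 0.05 and none called. This median was 0.00 with the mitochondrial share as a covariate and -0.43 with the length slope (0 and 11 members lower at an unadjusted p under 0.05). On the TPM scale it was -0.65, against -0.19 for all genes. DESeq2 called 3 of the 20 lower (1.27% of all genes with an adjusted p). The glutamate transporter Slc1a3 ran at 127 to 210.4 against 265 to 341 CPM (0.598-fold, adjusted p = 0.15) and the water channel Aqp4 at 56.2 to 104 against 118 to 141 CPM (0.63-fold, adjusted p = 0.15), both without overlap. Dbi, the acyl-CoA-binding protein, was the 1 member that was higher at that level (269 to 551 against 242 to 349.9 CPM). Amacrine genes had a median of -0.33, and 7 of 25 were lower at an unadjusted p under 0.05. This median was 0.07 with the mitochondrial share and -0.35 with the length slope (0 and 5 members lower at that level). The glycine transporter Slc6a9 ran at 49.2 to 100.1 against 94.8 to 143 CPM (0.63-fold, adjusted p = 0.19). Ganglion cell genes had a median of 0.06, and their 1 called member was Isl1, which the bipolar list also holds.

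Angiopoietin and vessel genes, the pathway the antibody acts on, held no called gene. Angpt2, the ligand that the antibody binds, read 2.19, 4.04, 3.96 and 2.93 CPM in the anti-ANG2 retinas and 9.56, 6.36, 3.04 and 10.4 CPM in the IgG retinas. IgG replicates 1, 2 and 4 were above every anti-ANG2 retina and IgG replicate 3 lay among them, so the groups overlapped. The means were 3.28 ± 0.887 against 7.33 ± 3.34 CPM (mean ± SD, n = 4 each), and the estimate of 0.448-fold (95% interval 0.255 to 0.787, adjusted p = 0.19) was not a call. Angpt1, the competing ligand, ran at 1.66 to 5.49 against 0.305 to 3.21 CPM (1.41-fold, adjusted p = 0.81). The receptor Tek was near 0 in 3 of 4 anti-ANG2 retinas and at 4.18 CPM in replicate 4, against 0 to 2.54 CPM in the IgG retinas, and its partner Tie1 ran at 0.179 to 3.79 against 0 to 4.34 CPM. At these levels no difference in the receptors was detectable. Of the 14 genes of angiopoietin and Tie signalling 2 had an unadjusted p under 0.05, Angpt2 and the integrin gene Itgb1, and the median was -0.14.

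Vegfa, the hypoxia-driven growth factor, read 105, 128, 143 and 176 CPM in the anti-ANG2 retinas and 135, 178, 152 and 204 CPM in the IgG retinas, and the groups overlapped over most of their range (0.824-fold, adjusted p = 0.6). Its receptors Kdr (59.4 to 94.8 against 76.8 to 130.3 CPM, 0.677-fold, adjusted p = 0.26) and Flt1 (25.1 to 38 against 32.8 to 48.8 CPM, 0.774-fold, adjusted p = 0.42) were not called. The tip cell gene Apln averaged 25.9 ± 9.83 against 26.2 ± 5.05 CPM (mean ± SD, n = 4 each), a fold of 0.989 with a 95% interval of 0.635 to 1.54. Plvap, a gene of leaky endothelium, ran at 2.21 to 5.75 against 4.73 to 6.4 CPM, Esm1, another tip cell gene, at 0 to 1.73 against 0.327 to 1.13 CPM, Pecam1 at 1.25 to 1.96 against 0.846 to 2.34 CPM and Cldn5, of the tight junctions of the blood-retina barrier, at 7.64 to 12.4 against 8.97 to 11.2 CPM, all overlapping. The 24 endothelial genes had a median of -0.07 and summed to 174 to 208 CPM in the anti-ANG2 retinas and 208 to 277 CPM in the IgG retinas, which nearly touch, with Esam (0.566-fold, adjusted p = 0.18) and Kdr lower at an unadjusted p under 0.05. The 20 tip cell and neovascular genes had a median of -0.28. Among 18 genes of the barrier and of Norrin signalling 4 were lower and 1 was higher at that level, and the Wnt target Apcdd1 ran at 2.04 to 18.2 against 14.8 to 23.8 CPM (0.477-fold, adjusted p = 0.2). Pericyte and smooth muscle genes had a median of 0.28, which was -0.06 on the TPM scale, against -0.19 for all genes. Among them Acta2, smooth muscle actin, ran at 13.6 to 26.4 against 7.42 to 12 CPM (2.09-fold, adjusted p = 0.26). Vtn, vitronectin, ran at 1323 to 2065 against 911 to 1356 CPM (1.46-fold, adjusted p = 0.18). Haemoglobin RNA, from red cells left in the tissue, was lower at an unadjusted p under 0.05 with anti-ANG2 in 3 of 9 red cell genes, among them Hba-a1 at 38.9 to 61.9 against 71.2 to 159 CPM (0.402-fold, adjusted p = 0.19) and Hba-a2 at 25.1 to 40.8 against 46.9 to 122 CPM (0.37-fold, adjusted p = 0.18), and its part in the values of the vessel genes was not tested.

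**Figure D4:**
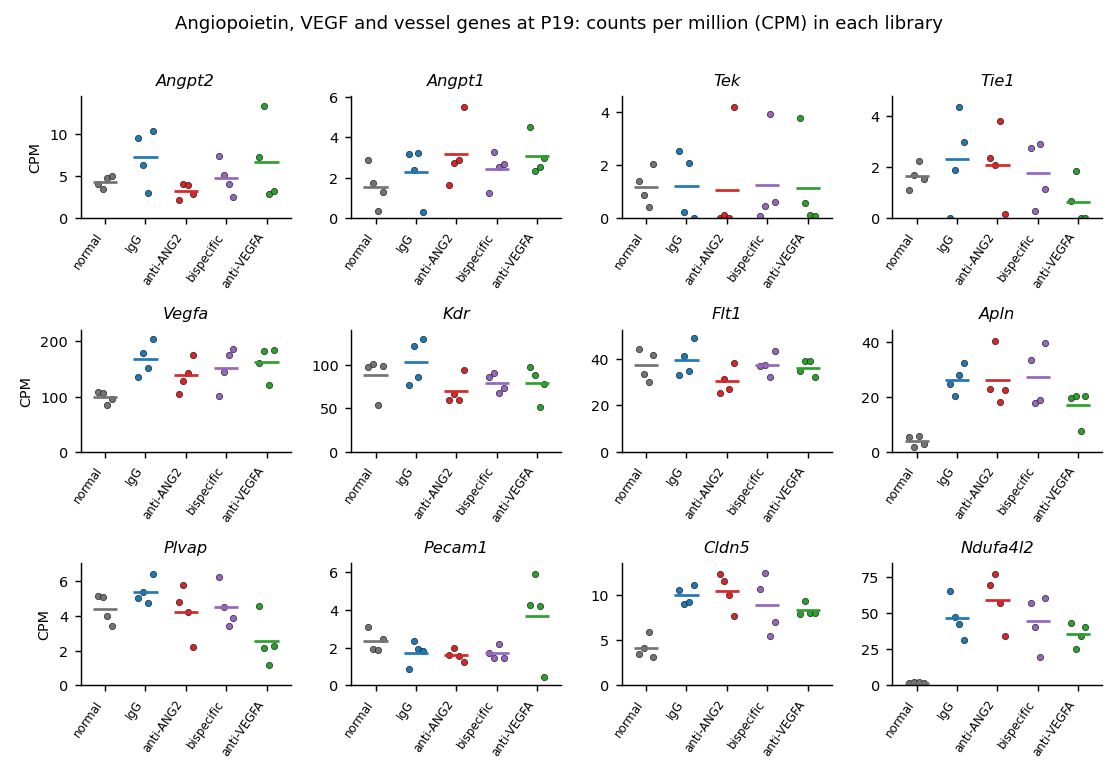
CPM (vertical axis, from 0) of 12 angiopoietin, VEGF and vessel genes in each of the 20 P19 libraries, with group means as lines. Angpt2 averages 3.28 CPM with anti-ANG2 and 7.33 CPM with IgG with 1 IgG point inside the anti-ANG2 range, and the points of the other 11 genes overlap between these groups.

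No gene of the hypoxia, microglia or cytokine lists was called. The 30 hypoxia genes had a median of -0.10. Ndufa4l2, a HIF-induced gene that pericytes also carry, ran at 34.3 to 76.7 against 31.6 to 65 CPM (1.27-fold, adjusted p = 0.59), and the vasoactive peptide Adm at 4.6 to 13.3 against 9.6 to 14.5 CPM (0.809-fold, adjusted p = 0.82). Gfap, the intermediate filament of astrocytes and reactive Müller glia, ran at 79.5 to 181 against 109 to 149 CPM, a fold of 0.968 with a 95% interval of 0.597 to 1.57. The myeloid gene Aif1 ran at 2.23 to 3.29 against 1.22 to 2.34 CPM (1.34-fold, adjusted p = 0.79) and the chemokine Ccl2 at no more than 1.26 CPM in any of the 8 retinas. Genes of activated microglia and macrophages had a median of 0.32, with 2 of 22 higher at an unadjusted p under 0.05, the adaptor genes Tyrobp (25.6 to 39.6 against 15.8 to 26 CPM, 1.52-fold, adjusted p = 0.36) and Fcer1g (21.1 to 37.7 against 9.29 to 18.3 CPM, without overlap, 1.68-fold, adjusted p = 0.27). On the TPM scale and with the length slope the median of that list was -0.06 and 0.03, where those of all genes were -0.19 and 0.03. Of 16 cytokine, chemokine and adhesion genes 4 were lower and 2 higher at an unadjusted p under 0.05, and the groups did not overlap in 3 lower and 1 higher (2.83% and 1.97% of all genes). DESeq2 called 2 of the 16 lower (1.27% of all genes with an adjusted p). Vcam1, an adhesion molecule for leukocytes, ran at 11.9 to 21.4 against 31.7 to 45 CPM (0.419-fold, adjusted p = 0.082), and Il33, a nuclear cytokine, at 31.4 to 40.5 against 49.3 to 74.5 CPM (0.587-fold, adjusted p = 0.14). For both genes the groups did not overlap, and neither was called. The immediate early gene Nr4a1 ran at 8 to 25.4 against 34.7 to 46 CPM, without overlap (0.463-fold, adjusted p = 0.097).

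Markers of neighbouring tissue overlapped between the groups. The 14 pigment epithelium genes summed to 1005 to 3200 CPM in the anti-ANG2 retinas and 1064 to 1452 CPM in the IgG retinas, with no member under an unadjusted p of 0.05. The 20 lens genes summed to 96 to 277 CPM in the anti-ANG2 retinas and 131 to 284 CPM in the IgG retinas, likewise with none. With both scores as covariates the test called 21 genes, 20 of them among the 23.

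To place the 23 genes among the other antibodies, their levels were set beside those of the other P19 groups. These values reuse the anti-ANG2 libraries that chose the genes, so they are given as descriptions. Scgn averaged 129.8 CPM with anti-ANG2, and 188 CPM in normal, 216 CPM in anti-VEGFA and 125 CPM in bispecific retinas. Neurod4 averaged 247 CPM with anti-ANG2, and 299.5 CPM in normal, 404 CPM in anti-VEGFA and 246 CPM in bispecific retinas. For both genes the bispecific mean lay close to the anti-ANG2 mean and below the other groups. Against the bispecific antibody Scgn was 1.04-fold (95% interval 0.87 to 1.24, adjusted p = 0.95) and Neurod4 was 1-fold (adjusted p = 1). Among the 23, Grm4 had the lowest fold against it, 0.196-fold (95% interval 0.105 to 0.366, adjusted p = 0.062). Across all genes edgeR called 0 between anti-ANG2 and the bispecific antibody, with 2725 at an unadjusted p under 0.05 (11.6%) and 401 called by DESeq2. Without anti-ANG2 replicate 4 it called 709. All 4 bispecific retinas carried Xist and no Y-linked counts, and the antibody was given at another concentration.

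Against anti-VEGFA, given at the same concentration and volume, 56 genes were called (0.238%), 43 lower with anti-ANG2 (0.183%) and 13 higher (0.0553%). Scgn was 0.602-fold (95% interval 0.505 to 0.718, adjusted p = 0.015) and Neurod4 0.611-fold (95% interval 0.506 to 0.739, adjusted p = 0.02). Lrrn3 was 0.534-fold (95% interval 0.401 to 0.71, adjusted p = 0.04). Isl1, by contrast, was 0.834-fold (95% interval 0.656 to 1.06) and was not called (adjusted p = 0.47). The count of calls was 1356 without anti-ANG2 replicate 4, 0 without anti-ANG2 replicate 1 or 2, 11 without anti-ANG2 replicate 3, and 189, 8, 25 and 8 without anti-VEGFA replicates 1 to 4. Of the anti-VEGFA retinas 2 carried Xist alone and 2 carried Xist and Y-linked counts.

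**Figure D5:**
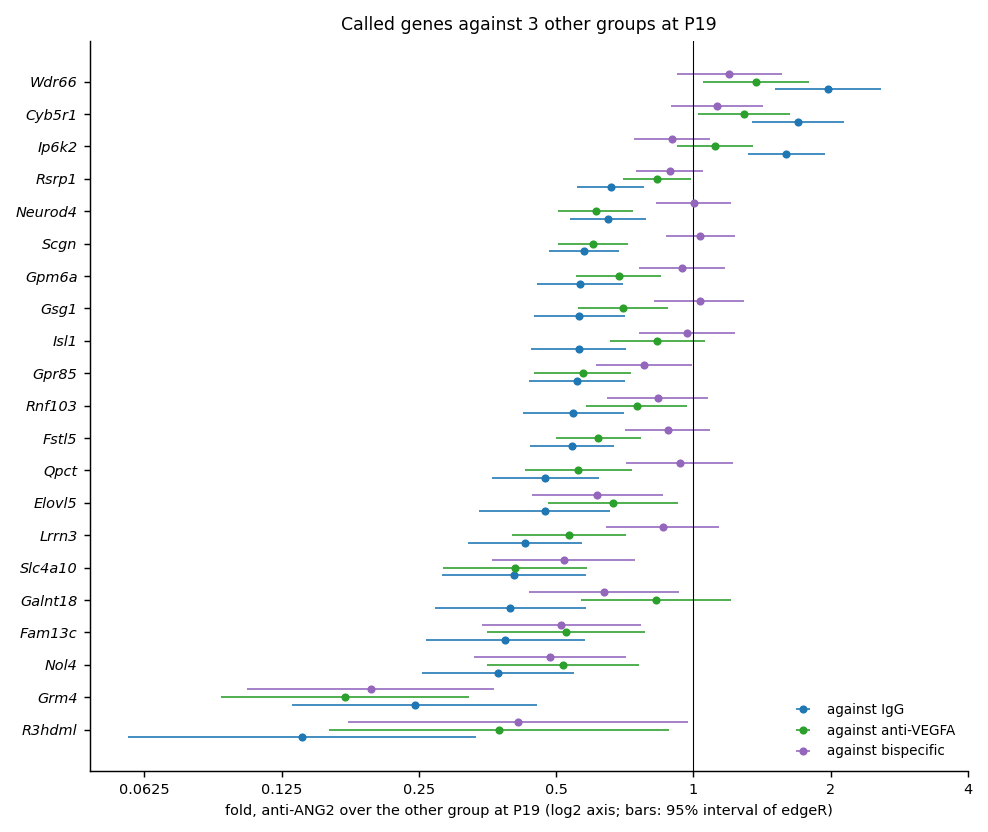
Fold of anti-ANG2 over IgG, anti-VEGFA and bispecific at P19 (log2 axis, bars are 95% intervals of edgeR) for 21 of the 23 genes called against IgG. 4930529C04Rik, with 2 counts in IgG, is not drawn. Scgn stands at 0.576 against IgG and 0.602 against anti-VEGFA, while its interval against the bispecific antibody spans 1.

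Against normal retinas of the same age, anti-ANG2 OIR retinas had 2516 genes called (10.7%), 1659 higher (7.06%) and 857 lower (3.65%). Slc4a10 was 0.357-fold (95% interval 0.248 to 0.514, adjusted p = 0.0001) of its normal level and Scgn 0.692-fold (95% interval 0.58 to 0.825, adjusted p = 0.0032). Ip6k2 was 2.08-fold (95% interval 1.72 to 2.53, adjusted p = 2.2e-06). For Isl1 the value was 0.744-fold (95% interval 0.585 to 0.946) and for Qpct 0.724-fold (95% interval 0.553 to 0.948), neither called (adjusted p = 0.11 and 0.12). In the IgG retinas, with 216 genes called against normal (0.919%), edgeR placed Isl1 at 1.33-fold and Qpct at 1.53-fold of normal (adjusted p = 0.28 and 0.12). The count of calls against normal fell to 1357 without anti-ANG2 replicate 1, to 180 with the mitochondrial share and to 56 with the length slope as a covariate.

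Whether the antibody effect differed between the ages was tested as the anti-ANG2 to IgG ratio at P19 over that at P17. No gene was called by edgeR, 2581 had an unadjusted p under 0.05 (11%), DESeq2 called 149 and limma-voom 119. Without anti-ANG2 replicate 4 of P19 edgeR called 124. At P17 itself edgeR called 0 genes between anti-ANG2 and IgG, with 1795 at an unadjusted p under 0.05 (7.64%). Scgn averaged 217 CPM with anti-ANG2 and 233 CPM with IgG at P17, and its ratio of ratios was 0.62-fold (95% interval 0.483 to 0.794, adjusted p = 0.21). For Isl1 it was 0.648-fold (95% interval 0.462 to 0.909, adjusted p = 0.34). A difference between the ages was thus not shown for these genes, which does not mean that the ages were alike. At P17 the anti-ANG2 group held Xist in all 4 libraries with Y-linked counts at 0, whereas 2 IgG libraries of that age held Y-linked counts alone.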

How the data were processed

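RNA-seq was done on whole retinas with SMART-Seq mRNA and Nextera XT libraries, per the labels' protocols, which mention neither strand nor molecular identifiers. The authors deposited RSEM expected counts and TPM (length-scaled share of transcripts) for 42037 symbols in 40 libraries. The submitters' processing notes name RSEM 1.3.3, STAR 2.7.10a and the build GRCm38.p4. An annotation is not named in these sources. The 8 libraries compared held 13724785 to 21477010 counts. Here the expected counts were rounded and then, with TMM factors, tested in edgeR 4.0.16 (quasi-likelihood, robust, filter by group, R 4.3.3) over all 40 libraries in 10 groups, with Benjamini-Hochberg adjustment over 23495 genes and calls at 0.05. The spread is thus shared between groups. The step was tested on simulated counts.

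Alternatives were RLE factors, no filter, DESeq2 1.42.0, limma 3.58.1 (voom with quality weights, and trend on log2(TPM + 1)), the compared groups alone, a replicate block, leaving out each library, and covariates for Y-linked counts, pigment epithelium and lens, and mitochondrial share. The length slope and leaving out libraries with both Xist and Y-linked counts were added after seeing the data. Gene positions and lengths came from GENCODE for GRCm38, matched by symbol, and promoters from RefSeq.

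Genes were named by a rule: called genes whose higher group averaged 5 CPM or more and whose groups did not overlap (12 per direction by fold, 8 by p), the called or the leading members of each list, and a set of vessel, hypoxia and inflammation genes. The members and the lists were chosen with earlier results of these data known. Otx2, Grm6, Trpm1, Gabbr2, Grik4, Nrl, Rpl3l, Ndufs1 and Dbi were added after their values were seen. Some genes that the rule names are not reported here.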

Additional observations from a re-analysis of the deposited data

Results flagged for a closer look

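In 160 groups of 4 libraries examined, 11 held a library far from the other 3 by Dixon's ratio at the 95% level, where chance flags about 1 in 20. In anti-ANG2 replicate 4, Lrrn3 stood at 75.5 CPM against 27.4 to 35.1 in the other 3, Cacna2d2 at 10.5 CPM against 5.44 to 5.96, and Tek at 4.18 CPM against 0 to 0.126. In anti-ANG2 replicate 1, Prph2 stood at 12202 CPM, with the highest of the others at 9048 CPM, and Vtn at 2065 CPM, with the highest of the others at 1414 CPM. In anti-ANG2 replicate 3, Esam stood at 16.4 CPM against 11.3 to 11.6, and Gabbr2 at 7.5 CPM against 17 to 18.2. Among the IgG retinas, R3hdml stood at 6.24 CPM in replicate 1 against 2.39 to 2.76, and 4930529C04Rik at 0.113 CPM in replicate 3 against 0. In IgG replicate 4, Aif1 stood at 1.22 CPM against 2.21 to 2.34 and Fcer1g at 9.29 CPM against 17.8 to 18.3.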

How the results depend on the processing

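The direction of the 23 called genes was kept in all 20 alternative fits that could fit them (22 genes in the fit of the compared groups alone), but the number called was not. Against IgG it was 1 with the compared groups alone and with the mitochondrial share, 11 with the length slope (1 higher, 10 lower), 6 without libraries that held both Xist and Y-linked counts (0 higher, 6 lower), 521 with DESeq2 (361 higher, 160 lower) and 578 with log2(TPM + 1) (28 higher, 550 lower). Genes called higher were 0 with the compared groups alone and with the mitochondrial share, 2 without a filter, 11 with limma-voom and 8 with Y-linked counts, and limma-voom called 12 lower. Leaving out 1 library gave 5 to 439 calls (0 to 244 higher, 5 to 195 lower). The deviations of same-numbered anti-ANG2 and IgG libraries had correlations of 0.31, -0.01, 0.07 and 0.35 for replicates 1 to 4. Anti-ANG2 replicates 1, 3 and 4 correlated best with the IgG library of the same number, and replicate 2 with IgG replicate 4 (0.04). Whether same-numbered libraries share more than a number was not tested. The replicate block called 27 genes against IgG, 21 of them shared, and 121 against anti-VEGFA.

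Against anti-VEGFA the 56 calls became 0 with the compared groups alone, 1 with the length slope, 4 without libraries that held both sexes' counts, 20 with pigment epithelium and lens covariates, 37 without a filter, 179 with log2(TPM + 1) and 1044 with DESeq2, and 0 to 1356 on leaving out 1 library. For the difference between ages the 0 calls became 149 with DESeq2, 119 with limma-voom, 1 with the length slope and 1 with log2(TPM + 1), and 0 to 124 on leaving out 1 library. Against the bispecific antibody they became 401 with DESeq2, 3 with log2(TPM + 1) and 0 to 709 on leaving out 1 library. Against normal retinas the 2516 calls became 56 with the length slope, 180 with the mitochondrial share, 1386 without libraries that held both sexes' counts, 6363 with log2(TPM + 1) and 1357 to 3242 on leaving out 1 library. The cause of these differences between tools was not tested.

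None of the genes that changed sign had been called. On the log2 scale, with the mitochondrial share, Apln was at 0.38, Dbi at -0.2, Esm1 at 0.41, Gfap at 0.07, Kdr at 0.04, Pecam1 at 0.32, Plvap at 0.19, Rpl3l at 0.29, Slc6a9 at 0.05, Tek at 0.55, Tie1 at 0.9, Tyrobp at -0.06, Vegfa at 0.04, mt-Rnr1 at -0.14 and mt-Rnr2 at -0.05, the last 2 by construction. With the length slope, Apln was at 0.1, Cldn5 at -0.17, Ndufa4l2 at -0.05, Otx2 at -0.04, Pecam1 at 0.02, Tie1 at 0.61 and Vegfa at 0.02. On log2(TPM + 1), Cldn5 was at -0.3, Ndufa4l2 at -0.04 and Otx2 at -0.29. Without libraries that held both sexes' counts, Apln was at 0.12, Gfap at 0.13 and Tek at 0.26. Apln was at 0.02 with DESeq2 and with RLE factors, Ccl2 at -0.06 with pigment epithelium and lens covariates, and Tie1 at 0.02 with the replicate block and 0.07 with limma-voom. On leaving out 1 library, Apln ran from -0.31 to 0.14, Ccl2 from -1.09 to 1.82, Cldn5 from -0.02 to 0.18, Gfap from -0.24 to 0.15, Pecam1 from -0.35 to 0.05, Tek from -4.50 to 0.5 and Tie1 from -0.56 to 0.36. With 4 retinas a group and levels of 0 to 5 CPM for Tek, Tie1, Esm1 and Ccl2, differences in these genes were not detectable at this depth.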
